A study of Homo sapiens with 8 samples.

Results

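The 10 genes described here, GAS5, SNHG1, SNHG5, SNHG6, SNHG7, SNHG8, SNHG12, SNHG15, SNHG16 and ZFAS1, are long non-coding RNA genes that carry small nucleolar RNAs (snoRNAs) in their introns. They were chosen by name and found among the 58302 genes of the count table by Ensembl identifier, through the symbols of GENCODE 44. All 10 were in the table, and 9 passed the filter on low counts that left 5368 genes for the test. The cells were A549, a line from a human lung adenocarcinoma, transfected either with an siRNA against APEX1, which encodes the DNA repair enzyme APE1, or with a scramble control siRNA. Each treatment gave 4 libraries of total RNA, prepared with a kit for small RNAs whose protocol was altered so that primary miRNA transcripts would be captured too. The study calls its replicates biological, while the labels do not say that the 4 samples of a group were separate cultures, so the p-values measure only the spread between these samples. APEX1 had 51, 61, 64 and 47 counts in the libraries labelled siCTRL and 21150, 19470, 27916 and 20767 counts in those labelled siAPEX1, which goes against the label. Counts per gene do not tell reads of the APEX1 transcript from reads of the transfected siRNA, and the study checked the silencing on the protein. Every direction below is therefore that of the 4 libraries labelled siAPEX1 against the 4 labelled siCTRL.

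Most human snoRNAs are not transcribed on their own. They are cut out of the introns of a host transcript, where splicing, opening of the lariat and trimming by exonucleases leave the snoRNA protected by its proteins. Box C/D snoRNAs guide 2′-O-methylation and box H/ACA snoRNAs guide pseudouridylation, mainly of ribosomal RNA. The spliced exons of the non-coding hosts hold no long reading frame, are often degraded through nonsense-mediated decay, and in several hosts begin with the pyrimidine run typical of transcripts of the translation machinery (5′TOP). A host gene therefore gives rise to stable snoRNAs and to a spliced RNA of short life, and the RNA-seq counts bear on both.

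The snoRNAs on which the results turn are shown from 5′ to 3′ on GRCh38, with the C box (NTGATGA, within the first 20 bases) and the D box (CTGA, within the last 20 bases) in capitals where these letters occur. The first 3 lie in SNHG16 on the plus strand, SNORD1C at chr17:76558791-76558868, SNORD1B at chr17:76561109-76561192 and SNORD1A at chr17:76561634-76561705. They show the only counted snoRNA gene of that host, SNORD1B, between its relatives.
SNORD1C: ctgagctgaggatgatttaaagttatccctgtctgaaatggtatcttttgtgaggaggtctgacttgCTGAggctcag
SNORD1B: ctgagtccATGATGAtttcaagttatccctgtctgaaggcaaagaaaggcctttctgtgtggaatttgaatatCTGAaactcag
SNORD1A: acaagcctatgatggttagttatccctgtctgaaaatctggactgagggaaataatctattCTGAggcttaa
SNORD1B shared 70.6% of aligned bases with SNORD1C and 58.2% with SNORD1A.

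ZFAS1 carries SNORD12C at chr20:49278940-49279028 and SNORD12B at chr20:49280319-49280409, both on the plus strand and both counted. SNHG12 carries SNORD99 at chr1:28578749-28578822 on the minus strand, shown because it is the only snoRNA gene of that host with counts.
SNORD12C: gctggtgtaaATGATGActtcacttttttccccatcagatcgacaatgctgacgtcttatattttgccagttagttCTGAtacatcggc
SNORD12B: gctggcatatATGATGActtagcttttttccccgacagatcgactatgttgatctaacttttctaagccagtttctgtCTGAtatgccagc
SNORD99: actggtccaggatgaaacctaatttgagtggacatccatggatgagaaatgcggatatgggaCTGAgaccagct
SNORD12B and SNORD12C shared 74.2% of aligned bases. Over the 313 SNORD genes of GENCODE 44, 65.2% held the C box letters in this window, 90.1% the D box letters and 62.3% both.

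A second set of snoRNAs has an entry in RefSeq and no gene of its own in GENCODE 44. Within the 10 hosts RefSeq lists 37 snoRNAs, of which 14 are of this kind, 11 in GAS5, 2 in SNHG1 and 1 in SNHG5. All 14 overlap an exon annotated for the host, so their reads are not separated from those of the host in a count per gene. An example of each host is shown, read on the strand of the host (minus for all 3), SNORD44 in GAS5 at chr1:173865968-173866028, SNORD31 in SNHG1 at chr11:62853326-62853393 and SNORD50A in SNHG5 at chr6:85677294-85677368.
SNORD44: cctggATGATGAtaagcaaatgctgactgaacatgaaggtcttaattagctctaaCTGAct
SNORD31: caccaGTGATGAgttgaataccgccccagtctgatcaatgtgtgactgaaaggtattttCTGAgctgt
SNORD50A: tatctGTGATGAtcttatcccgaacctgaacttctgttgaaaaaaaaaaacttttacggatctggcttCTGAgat

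GENCODE 44 itself places 26 snoRNA genes within the 10 hosts, and 23 of these are overlapped by an exon of their host. Counts of 0 in all 8 libraries were found for 21 of the 26, each overlapped by a host exon. Counting error alone would allow up to 3 counts per library. A 0 at these genes does not tell a low level from reads shared with the host exon and not counted on the snoRNA gene. It therefore sets no upper limit on the snoRNA itself. The 3 snoRNA genes free of host exons, SNORD99, SNORD1B and SNORD12C, all had counts, as did SNORD30 in SNHG1 and SNORD12B in ZFAS1. Among the hosts of the table other than the 10, 150 of 197 snoRNA genes overlapped by a host exon (76.1%) were at 0, against 170 of 355 (47.9%) of those not overlapped. The release of the annotation used for counting was not stated, so these overlaps need not be those the counter saw.

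Between 1348386 and 1949886 reads were counted on genes per library, and the largest siAPEX1 library (1619500) was smaller than the smallest siCTRL library (1639796). Library size and condition thus cannot be told apart. The trimmed-mean (TMM) factors that make the libraries comparable lay between 1.10 and 1.14 in siCTRL and between 0.873 and 0.919 in siAPEX1. Over all genes tested the log2 fold change had a median of -0.34 with library size alone and of -0.0035 with TMM factors, so each host is given under both scalings. Of the 8 tested A549 markers 3 were higher and 3 lower with TMM factors, against 15.9% and 15.8% of all genes, and 2 did not pass the test. The epithelial keratins KRT8, KRT18 and KRT7 were lower in siAPEX1 libraries (log2 fold changes -1.01, -1.36 and -1.21). CDH1, AKR1B10 and AKR1C2 were higher, each by less than 1 on the log2 scale. With library size alone 2 markers were higher and 4 lower, where 6.33% of all genes were higher and 36.2% lower. Markers of blood, stromal, endothelial and liver cells reached at most 11 counts in any library. The part of these differences in the results on the hosts was not tested, and in bulk RNA fewer expressing cells and less RNA per cell cannot be told apart.

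Levels of the 10 hosts spanned 4 orders of magnitude. Per kilobase of merged exons, GAS5 had a mean of 22946 CPM (counts relative to library size times TMM factor) over the 8 libraries (range 19515 to 27365), SNHG1 12861 (10879 to 15141) and SNHG5 1067 (776 to 1351). SNHG6 followed with 15.9 (13.4 to 18.9), ZFAS1 with 8.07 (5.92 to 9.98) and SNHG16 with 4.45 (1.14 to 7.92), all in CPM per kilobase. The lowest were SNHG7 at 3.49, SNHG8 at 2.03, SNHG12 at 1.72 and SNHG15 at 1.11. In this order the ranges of neighbours overlapped from ZFAS1 downwards, and those of the first 5 genes did not. The first 3 hosts, which contain the snoRNAs without a gene of their own, held 99.9% of all counts of the 10 hosts, and the 10 together held between 16.7% and 18.1% of the gene counts of each library.

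**Figure D1:**
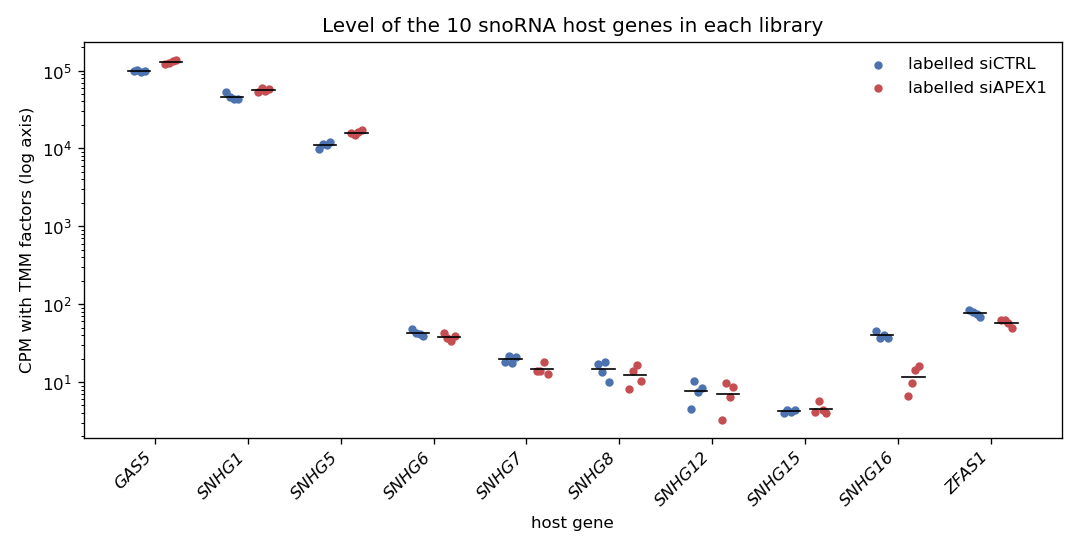
Level of each of the 10 host genes (CPM with TMM factors, log axis) in the 4 libraries labelled siCTRL (blue) and the 4 labelled siAPEX1 (red), with 1 point per library and a line at the group mean. GAS5, SNHG1 and SNHG5 stand far above the other hosts, and the points of SNHG16 show the widest gap between the groups.

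GAS5 (growth arrest specific 5, ENSG00000234741, chr1:173858559-173868882, minus strand) was the host with the most counts. Its counts were 195838, 211186, 207686 and 177661 in siCTRL libraries and 145609, 151582, 183320 and 169909 in siAPEX1 libraries. In CPM the siCTRL libraries had 98829 ± 2512 (SD, n = 4) and the siAPEX1 libraries 127512 ± 7189 (SD, n = 4), without overlap. Its log2 fold change was 0.37 with TMM factors (standard error 0.0754, edgeR quasi-likelihood test, adjusted p = 1.63e-04). It was 0.025 with library size alone (edgeR, adjusted p = 0.798), so GAS5 passed the test under the first scaling only.

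SNHG1 (ENSG00000255717, chr11:62851978-62855953, minus strand), host of SNORD22 and SNORD25 to SNORD31, showed a smaller difference. SNHG1 counts were 103929, 93171, 93336 and 78526 in siCTRL libraries and 63742, 74173, 76464 and 71966 in siAPEX1 libraries. Its CPM were 46023 ± 4240 in siCTRL and 56244 ± 3259 in siAPEX1 libraries (SD, n = 4 each). The groups came close, 52258 CPM in the highest siCTRL library and 52488 in the lowest siAPEX1 library. The log2 fold change was 0.29 (standard error 0.0801, edgeR adjusted p = 0.00447), and with library size alone it turned to -0.054 (adjusted p = 0.598).

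SNHG5 (ENSG00000203875, chr6:85650491-85678932, minus strand), host of SNORD50A and SNORD50B, had the largest rise of the 10. SNHG5 counts were 19453, 23501, 23642 and 21772 in siCTRL libraries and 18874, 18076, 22393 and 21431 in siAPEX1 libraries. This corresponds to 11042 ± 953 and 15845 ± 991 CPM (SD, n = 4 each), without overlap. The log2 fold change was 0.52 (standard error 0.0823, edgeR adjusted p = 2.55e-06), against 0.18 with library size alone (adjusted p = 0.0639). For these 3 hosts the counts do not tell the spliced RNA from the snoRNAs, and the share of the gene counts they held together was nearly level, 16.7% to 17.8% in siCTRL and 16.9% to 18.1% in siAPEX1 libraries.

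The other 7 hosts, whose counts were low, held 438, 431, 436 and 338 counts together in siCTRL libraries and 171, 188, 210 and 176 in siAPEX1 libraries. This was between 0.0206% and 0.0244% of the gene counts in siCTRL and between 0.0121% and 0.0132% in siAPEX1 libraries. SNHG16 and ZFAS1 passed the test in this group, both lower.

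SNHG16 (ENSG00000163597, chr17:76557727-76670985, plus strand), host of SNORD1A, SNORD1B and SNORD1C, fell the most. SNHG16 counts were 91, 75, 87 and 66 in siCTRL libraries and 8, 12, 20 and 20 in siAPEX1 libraries. Each siAPEX1 library lay far below each siCTRL library, with 15.9 CPM as the highest of the first and 36.3 CPM as the lowest of the second. The group means were 39.7 ± 4.42 and 11.7 ± 4.28 CPM (SD, n = 4 each). The log2 fold change was -1.75 (standard error 0.191, edgeR adjusted p = 8.84e-10) with TMM factors and -2.09 (adjusted p = 2.97e-13) with library size alone.

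ZFAS1 (ENSG00000177410, chr20:49278178-49299600, plus strand), host of SNORD12, SNORD12B and SNORD12C, fell less. ZFAS1 counts were 165, 166, 159 and 123 in siCTRL libraries and 75, 78, 80 and 62 in siAPEX1 libraries. The CPM, 76.3 ± 6.73 in siCTRL and 58.0 ± 6.30 in siAPEX1 libraries (SD, n = 4 each), did not overlap. Its log2 fold change was -0.40 (standard error 0.117, edgeR adjusted p = 0.00716), and -0.74 with library size alone (adjusted p = 1.36e-06). Without siAPEX1 replicate 4 it was -0.30 (adjusted p = 0.0737), so the call rests on that library. ZFAS1 is overlapped on the other strand by ZNFX1, which had 135 counts over all 8 libraries, and the strand setting of the counting was not stated. The same limit holds for other hosts with low counts, such as SNHG7, overlapped by DIPK1B (61 counts), and SNHG12, overlapped by TRNAU1AP (14 counts).

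SNHG6 (ENSG00000245910, chr8:66920561-66926398, minus strand), host of SNORD87, had 95, 88, 88 and 70 counts in siCTRL and 52, 45, 47 and 49 in siAPEX1 libraries. The CPM, 42.5 ± 3.87 and 38.0 ± 3.80 (SD, n = 4 each), overlapped, and the log2 fold change of -0.16 did not pass the test (edgeR adjusted p = 0.377). SNHG7 (ENSG00000233016, chr9:136721366-136728184, minus strand), host of SNORA17A and SNORA17B, had 36, 44, 38 and 38 counts against 17, 17, 25 and 16. Its log2 fold change was -0.40 (standard error 0.196, edgeR adjusted p = 0.116), the same size as that of ZFAS1 with a larger error. SNHG8 (ENSG00000269893, chr4:118278703-118285316, plus strand), host of SNORA24, had 34, 28, 39 and 18 counts against 10, 17, 23 and 13, and a log2 fold change of -0.26 (adjusted p = 0.437). Without single libraries SNHG6 lay between -0.20 and -0.082 and SNHG8 between -0.43 and -0.092. SNHG6, SNHG7 and SNHG8 passed the test with library size alone, at -0.51, -0.74 and -0.60 (edgeR adjusted p = 0.00228, 0.00182 and 0.0328).

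The lowest hosts were SNHG12 and SNHG15. SNHG12 (ENSG00000197989, chr1:28578538-28583132, minus strand), host of SNORD99, SNORA16A, SNORA44 and SNORA61, had 9, 21, 16 and 15 counts in siCTRL and 4, 12, 9 and 11 in siAPEX1 libraries. Its log2 fold change of -0.10 (standard error 0.314) did not pass the test with TMM factors (edgeR adjusted p = 0.838) or with library size alone (-0.44, adjusted p = 0.250). SNHG15 (ENSG00000232956, chr7:44983019-44986961, minus strand), host of SNORA9, had 8, 9, 9 and 8 counts against 5, 7, 6 and 5, and was below the filter. Its CPM were 4.24 ± 0.184 in siCTRL and 4.52 ± 0.785 in siAPEX1 libraries (SD, n = 4 each), with overlap, and no test was made at these counts.

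Of the 9 hosts tested, 3 were higher (GAS5, SNHG1, SNHG5), 2 were lower (SNHG16, ZFAS1) and 4 did not pass an adjusted p of 0.05. Among all genes tested 15.9% were higher and 15.8% lower. DESeq2 gave the same numbers of calls, 3 higher and 2 lower. Where a log2 fold change beyond 1 in either direction was required too, only SNHG16 remained lower and 0 hosts were higher, against 5.68% and 3.6% of all genes. The CPM of the groups, which rest on the TMM factors, did not overlap for 5 of the 9 hosts and for 28.9% of all genes. As plain shares of the gene counts, GAS5, SNHG1 and SNHG5 overlapped between the groups, while SNHG6 and SNHG7 did not. The share of all genes without overlap was not computed on that scale. The median log2 fold change of the hosts was -0.16, with -0.0035 over all genes. When only library size was used, 0 hosts were higher by edgeR (1 at an unadjusted p under 0.05) and 5 lower, with 6.33% and 36.2% of all genes, so among the 5 hosts called with TMM factors SNHG16 and ZFAS1 kept their calls under both scalings.

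**Figure D2:**
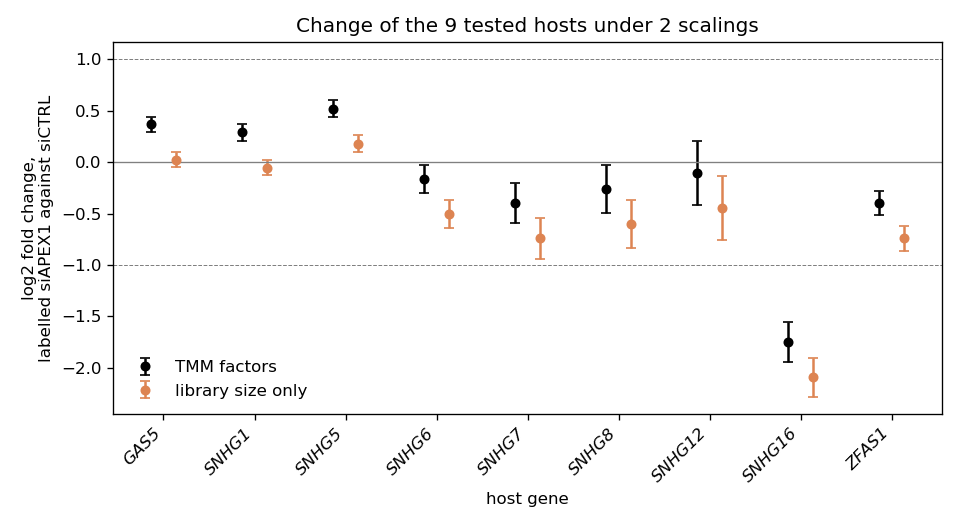
Log2 fold change of the 9 tested hosts, siAPEX1 against siCTRL libraries, with TMM factors (black) and with library size alone (orange). Bars are standard errors of the edgeR fit, and dashed lines mark log2 fold changes of 1 and -1. Every host lies lower with library size alone, and SNHG16 is beyond -1 under both scalings.

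The tested snoRNA genes inside the hosts were higher, those of SNHG16 and ZFAS1 included. SNORD1B of SNHG16 had 13692, 14665, 14599 and 12075 counts in siCTRL libraries and 10483, 11585, 12457 and 12298 in siAPEX1 libraries, and rose by 0.42 on the log2 scale (standard error 0.0792, edgeR adjusted p = 4.37e-05). SNORD12C of ZFAS1 had 17399, 20228, 19336 and 18187 counts against 15403, 15752, 18414 and 16976, and rose by 0.48 (standard error 0.0797, adjusted p = 7.18e-06). SNORD12B of the same host had 25959, 31681, 31007 and 25466 counts against 18729, 21725, 22320 and 20809, and rose by 0.21 (standard error 0.0800, adjusted p = 0.0424), a call lost without any of 5 single libraries (siCTRL replicate 1, 3 or 4, siAPEX1 replicate 2 or 4), where it lay between 0.17 and 0.23. SNORD99 of SNHG12 rose the most, with 1629, 1970, 1561 and 1059 counts against 1249, 1597, 2075 and 1605 and a rise of 0.72 on the log2 scale (standard error 0.108, edgeR adjusted p = 8.37e-07).

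All 4 tested snoRNA genes were thus higher with TMM factors, with 15.9% of all genes, and their CPM did not overlap between the groups, as for 28.9% of all genes. These shares are over genes of every kind, so they do not set the 4 apart from snoRNA genes of other hosts. DESeq2 called the 4 as well, and 0 of them reached a log2 fold change of 1. SNORD99 passed the test with library size alone as well (0.38, edgeR adjusted p = 0.00198), SNORD1B and SNORD12C stood at 0.081 and 0.13 without passing it, and SNORD12B turned to -0.13 (adjusted p = 0.159). SNORD30 of SNHG1, overlapped by exons of its host, had between 1 and 14 counts and was not tested.

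The ratio of a host to its snoRNAs within a library does not depend on the scaling. It could be computed for 3 of the 10 hosts and for 75 hosts of the whole table, coding and non-coding. Per 1000 counts of SNORD1B, the siCTRL libraries had 6.65, 5.11, 5.96 and 5.47 counts of SNHG16 and the siAPEX1 libraries 0.763, 1.04, 1.61 and 1.63. The groups did not overlap, and the log2 ratio differed by -2.22 (standard error 0.237, limma adjusted p = 7.50e-05), that is 4.66-fold lower in siAPEX1 libraries. This was the lowest difference of the 75 hosts, next to that of EPB41L4A-AS1 (-2.21, standard error 0.297).

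ZFAS1 had 3.81, 3.20, 3.16 and 2.82 counts per 1000 counts of SNORD12B and SNORD12C in siCTRL libraries and 2.20, 2.08, 1.96 and 1.64 in siAPEX1 libraries. The groups did not overlap, and the log2 ratio differed by -0.71 (standard error 0.153, limma adjusted p = 0.00377). The difference was -0.87 against SNORD12C alone and -0.60 against SNORD12B alone. SNHG12 had 5.52, 10.7, 10.2 and 14.2 counts per 1000 counts of SNORD99 in siCTRL libraries and 3.20, 7.51, 4.34 and 6.85 in siAPEX1 libraries. Here the groups overlapped, the log2 ratio differed by -0.85 (standard error 0.321, limma adjusted p = 0.0421), and the call was lost without siCTRL replicate 2, 3 or 4 and without siAPEX1 replicate 1 or 3 (differences from -0.82 to -0.65).

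**Figure D3:**
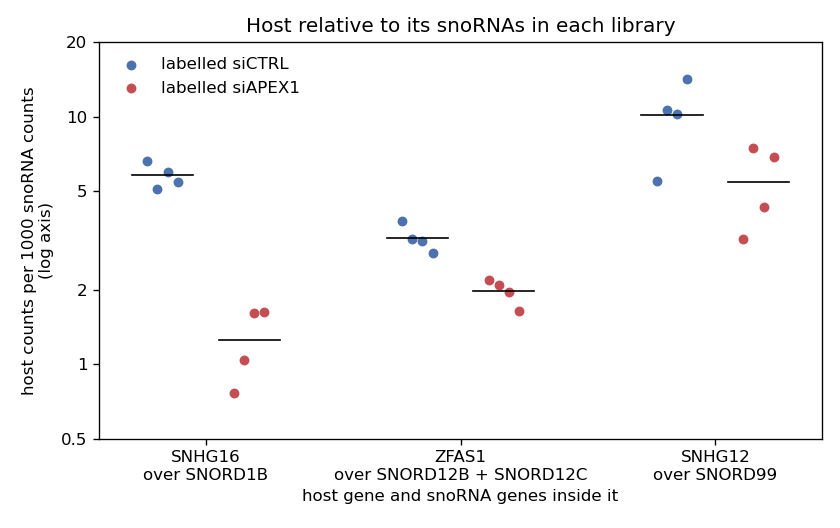
Counts of SNHG16, ZFAS1 and SNHG12 per 1000 counts of the snoRNA genes inside them (log axis) in each library labelled siCTRL (blue) or siAPEX1 (red), with a line at the group mean. For SNHG16 the siCTRL libraries lie between 5.11 and 6.65 and the siAPEX1 libraries between 0.763 and 1.63.

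A lower ratio was common among hosts. Of the 75, 47 (62.7%) were lower by limma at an adjusted p of 0.05 and 0 were higher, as at an unadjusted p under 0.05. A negative difference was found for 70, and the median difference was -0.58. The protein-coding hosts gave 42 lower of 66 with a median of -0.57, and the 6 other non-coding hosts gave 2 lower, EPB41L4A-AS1 and SNHG32 (-0.74), with a median of -0.28. The ratios of the groups overlapped for SNHG32 (limma adjusted p = 0.0429) and not for EPB41L4A-AS1 (limma adjusted p = 1.93e-04). ZFAS1 and SNHG12 ranked 29 and 18 from the lowest of the 75, whereas SNHG16 stood at the end of the range from -2.22 to 0.42. By the exact two-sided permutation test of 4 libraries against 4, SNHG16 and ZFAS1 reached p = 0.0286, the smallest this design allows, and SNHG12 p = 0.0857. Adjusted over the 75 hosts these were 0.0536, 0.0536 and 0.126.

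**Figure D4:**
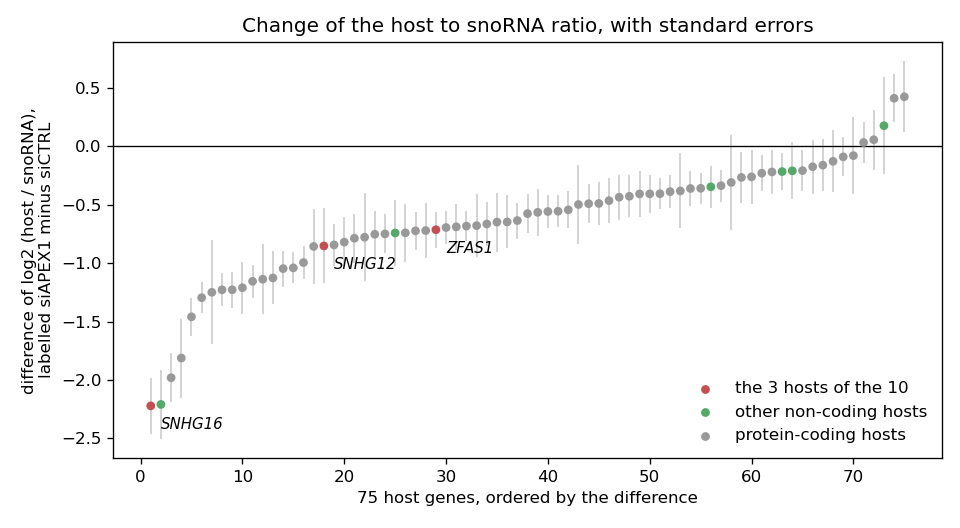
Difference of the log2 host to snoRNA ratio, siAPEX1 minus siCTRL libraries, for 75 hosts in increasing order, with standard errors from limma. SNHG16, ZFAS1 and SNHG12 are red, other non-coding hosts green and protein-coding hosts grey. SNHG16 is at the lower end, and 70 of the 75 points are below 0.

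The starts of the hosts were read for the pyrimidine run of 5′TOP transcripts, here a C at the annotated RefSeq start followed by at least 4 C or T. The 30 bases shown run from 10 before the start to 20 from it on, in GRCh38.p14, with the unbroken run of C and T from the start in capitals. They set the 3 hosts with such a run beside SNHG16 and SNHG1, which have none, and lie at chr6:85678714-85678743 (SNHG5, minus strand), chr1:28581854-28581883 (SNHG12, minus), chr20:49278632-49278661 (ZFAS1, plus), chr17:76557754-76557783 (SNHG16, plus) and chr11:62855866-62855895 (SNHG1, minus).
SNHG5: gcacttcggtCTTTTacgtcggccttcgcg
SNHG12: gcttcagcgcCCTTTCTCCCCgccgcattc
ZFAS1: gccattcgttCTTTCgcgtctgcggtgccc
SNHG16: gggcggtctcgcgttcttttcgaggtcggc
SNHG1: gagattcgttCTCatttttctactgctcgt
The run was present in 3 of the 8 hosts with an entry in the RefSeq table (37.5%), against 43 of the 211 protein-coding hosts with an entry (20.4%) and 5.14% of all 27305 genes of the table, counting a gene with the run at any of its listed starts. The match describes the annotated start only, and no start was measured here. GAS5 counts as without the run, but its RefSeq start (chr1:173869045) lies outside the gene span given above, which ends at 173868882. SNHG7 and SNHG1, also without it, began with a C and an unbroken run of 4 and of 3 bases, so their calls depend on the exact start annotated. The 3 hosts with the run had log2 fold changes of 0.52 (SNHG5), -0.10 (SNHG12, standard error 0.314, not past the test) and -0.40 (ZFAS1). The counts of SNHG5 do not tell its spliced RNA from its snoRNAs. Whether the spliced RNAs of the 3 share a direction thus cannot be read from these values.

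Other non-coding hosts were called in both directions, at shares to be read against the 15.9% higher and 15.8% lower of all genes. Of 18 listed, 9 were tested, 2 were higher, SNHG19 (log2 fold change 1.48, edgeR adjusted p = 1.37e-09) and SNHG9 (1.02, adjusted p = 0.00112), and 2 were lower, EPB41L4A-AS1 (-1.79, adjusted p = 2.66e-07) and SNHG29 (-0.49, adjusted p = 2.09e-04). Their median was -0.34. With library size alone 2 of the 9 were higher and 4 lower, too few to set against the 6.33% and 36.2% of all genes under that scaling. Of 260 protein-coding hosts 148 were tested, 21 were higher and 17 lower, with a median of 0.036, which as shares are no larger than those of all genes. DESeq2 called 8 higher and 9 lower, and leaving out single libraries gave 13 to 19 higher (13 without siCTRL replicate 3) and 11 to 15 lower (11 without siAPEX1 replicate 1, 3 or 4). ATP6V0E1, a subunit of the vacuolar proton pump, was lower (-1.68, adjusted p = 4.52e-07) and RPGR, a protein of the photoreceptor cilium, higher (1.45, adjusted p = 1.19e-04). Scaled by library size only, 6 of the 148 protein-coding hosts were higher and 58 lower, where 6.33% of all genes were higher and 36.2% lower.

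The lists of proteins that assemble with snoRNAs or trim them were too short to set against the 15.9% higher and 15.8% lower of all genes. None of the 4 core C/D proteins (FBL, NOP56, NOP58, SNU13) and none of the 3 tested H/ACA proteins passed the edgeR test with TMM factors, nor did any by DESeq2. At an unadjusted p under 0.05 edgeR gave 0 and 1 of them, and with library size alone 1 (FBL) and 2 (NHP2, NOP10) were lower. Of 6 tested assembly factors PIH1D1, part of the R2TP chaperone complex, was lower (log2 fold change -1.09, edgeR adjusted p = 0.00792). Of 4 tested factors of intron release and trimming MTREX, the helicase that feeds RNA to the nuclear exosome, was lower (-0.56, adjusted p = 0.00335). In the lists of assembly and of trimming 2 genes each were lower with library size alone, where 36.2% of all genes were lower.

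Nonsense-mediated decay, which degrades spliced host RNA, was represented by 9 tested genes. UPF2, which bridges UPF1 to the exon junction complex, was higher (log2 fold change 0.60, edgeR adjusted p = 0.0279), and so was the 5′ to 3′ exonuclease XRN1 (0.63, adjusted p = 0.0243). The other 7 did not pass the test, and 15.9% of all genes were higher. DESeq2 called 0 of the 9 (2 higher at an unadjusted p under 0.05), and with library size alone edgeR called 0 higher, also unadjusted, and 1, RBM8A, lower. Of the 3 tested regulators of TOP transcripts, RPS6KB1, the S6 kinase, was higher (0.86, adjusted p = 0.00409), EIF4EBP1, an inhibitor of cap-dependent translation, was lower (-1.41, adjusted p = 5.49e-04), and LARP1 stood at -0.11 without passing the test, too few genes to set against the 15.9% and 15.8% of all genes. By edgeR with library size alone 0 of these 3 were higher (1 at an unadjusted p under 0.05) and 2 lower. Under that scaling 6.33% of all genes were higher and 36.2% lower.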

How the data were processed

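Total RNA of A549 cells was sequenced in 8 libraries, grouped by their labels. The authors trimmed adapters, aligned to GRCh38 with STAR 2.5.3a and deposited whole-number counts per Ensembl gene, without normalization. The release and strand setting were not given in the sources used here. GENCODE 44 held 57532 of the 58302 genes. Counts were tested with edgeR 4.0.16 in R 4.3.3 (TMM factors, quasi-likelihood test, Benjamini-Hochberg adjustment over all genes tested). The filterByExpr function (minimum count 10, minimum total 15) kept 5368 genes with 97.5% to 98.1% of the counts, and the common biological coefficient of variation was 0.0832. CPM are counts relative to library size times TMM factor. A standard error is the log2 fold change over the square root of F.

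Host to snoRNA ratios used log2((host + 0.5)/(sum of snoRNAs + 0.5)) in limma 3.58.1, over 75 hosts with a mean of at least 10 counts in both. snoRNA genes lay wholly within the host on its strand. DESeq2 1.42.0, which the authors used, was an alternative here, as were other scalings and filters, a replicate block and each library left out. The programs were tested on simulated data. The 12 pairs of replicates gave chi-squares per degree of freedom of 1.67 to 2.97, so none was counted as a duplicate. The 10 hosts are all named. Of their snoRNA genes the rule named the one with most counts per host and any past both thresholds, and of other lists at most 4 members with the largest change among those called. SNORD12C, SNHG32, FBL, NHP2, NOP10, RBM8A, LARP1 and the A549 markers beyond that number were named after their values were seen. Hosts and lists were chosen with earlier results of these data known.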

Additional observations from a re-analysis of the deposited data

How the results depend on the processing

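With library size alone in place of TMM factors, SNHG1 turned to a log2 fold change of -0.054 and SNORD12B to -0.13, 0 hosts were higher and 5 lower, and 1 snoRNA gene was higher. SNHG12 turned to 0.14 without siAPEX1 replicate 1 and to 0.072 without siCTRL replicate 2, in a range from -0.29 to 0.14 over the 8 libraries left out. Leaving out each library in turn gave between 1 and 2 lower hosts, the lower count without siAPEX1 replicate 4, where ZFAS1 lost its call. It gave a difference of the log2 ratio of SNHG12 between -1.11 and -0.65, the call being lost without siCTRL replicate 2, 3 or 4 and without siAPEX1 replicate 1 or 3. SNORD12B lost its call without siCTRL replicate 1, 3 or 4 and without siAPEX1 replicate 2 or 4, and also with upper-quartile factors (0.20, adjusted p = 0.0563), with all genes of at least 1 count (0.11, adjusted p = 0.530) and with at least 10 counts in every library (0.12, adjusted p = 0.245). With at least 10 counts in every library, 0 hosts passed both thresholds, since SNHG16 is not in that table, and SNHG7 passed the test (-0.49, adjusted p = 0.0422). With all genes of at least 1 count, SNHG1 lost its call (0.19, adjusted p = 0.247). DESeq2 called 1123 genes in all, against 1703 with edgeR. By the exact permutation test, whose smallest p is 0.0286, the ratios of SNHG16 (-2.22), ZFAS1 (-0.71) and SNHG12 (-0.85) had adjusted p = 0.0536, 0.0536 and 0.126, and 0 of the 75 hosts passed (47 by limma). The log2 fold change and call of SNHG16 kept direction and side of the threshold under 16 of 16 alternatives. Same-numbered libraries shared only a number, with correlations of their deviations between -0.0373 and -0.00348, and no sample correlated best with its own number. A replicate block left 3 hosts higher and 2 lower, with SNHG16 at -1.75 (adjusted p = 1.33e-06), changed no call of the 10 hosts, of their 4 tested snoRNA genes or of the 3 ratios, and gave 41 of 75 lower ratios and 1595 genes in all. The counts of SNHG8, SNHG12 and SNHG15 were low, at most 39 in any library.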

Other observations

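The snoRNAs of ZFAS1 did not move by the same amount. SNORD12B had 1.49, 1.57, 1.60 and 1.40 counts for each count of SNORD12C in siCTRL libraries and 1.22, 1.38, 1.21 and 1.23 in siAPEX1 libraries, without overlap. The mean log2 ratio was 0.60 ± 0.0864 in siCTRL and 0.33 ± 0.0899 in siAPEX1 libraries (SD, n = 4 each), a difference of -0.27 that does not depend on the scaling. The exact two-sided permutation test gave p = 0.0286, the smallest this design allows, and without each library in turn the difference lay between -0.31 and -0.24. This pair was chosen after its values were seen, and the p is not adjusted. SNORD12B is overlapped by an exon of ZFAS1 in GENCODE 44 and SNORD12C is not, and the part of this in the difference was not tested.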
